A study of Canis lupus familiaris with 8 samples.

Results

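TRAV9 was the V gene family of 7196 of the 16582 canine T cells in which exactly 1 T cell receptor alpha (TRA) chain and 1 beta (TRB) chain were read, or 43.4%. Members were taken by name: every TRA chain whose V gene call started with TRAV9- in a cell with 1 TRA and 1 TRB row was kept and joined, by library and cell barcode, to the raw unique molecular identifier (UMI) counts of CD4 and CD8A in the same cell. In this way 11 TRAV9 genes were found among 29 TRAV genes. The cells came from TCRαβ+ T cells sorted from the peripheral blood of 4 healthy, untreated Beagles, dog 1 a female of 5 years and dogs 2, 3 and 4 males of 7, 7 and 9 years. Each dog gave 1 transcriptome and 1 V(D)J library from the same cells, so the dog is the replicate (n = 4).

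Cells with at least 1 UMI of CD4 and none of CD8A were called CD4 single-positive, and the reverse CD8A single-positive. Of the TRAV9 cells, 2626 were CD4 single-positive, 2197 were CD8A single-positive, 119 had UMIs of both genes and 2254 had neither. A clonotype was 1 combination of V gene, J gene and junction nucleotides of both chains within a dog, it took the class of most of its single-positive cells, and it was counted once whatever its number of cells. TRAV9 then held 3072 of 7419 clonotypes (41.4%), 2196 in CD4 and 876 in CD8A. Chains of TRAV9-11 with TRAJ28 (258 clonotypes) were kept apart from the other 2814.

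An alpha chain is made in the thymus by joining a V to a J gene, with bases trimmed and added at the joint. The junction, which runs from the conserved cysteine codon of V to the phenylalanine codon of J, holds CDR3, while CDR1 and CDR2 lie within V and mainly face the MHC molecule. Because TRA can rearrange repeatedly on the same chromosome, and each round uses V genes and J genes farther apart, the J genes a V gene is joined to depend on where it lies in the locus. Mucosal-associated invariant T (MAIT) cells of other mammals carry a nearly fixed V-J pair with a nearly constant junction length, and TRAV9-11 with TRAJ28 was handled apart as the candidate for such a pair in the dog.

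The stretches from the cysteine codon to the tryptophan codon around CDR1, read from the germline sequences deposited with the V(D)J calls, are shown for the 7 genes with enough clonotypes to be tested, with the 19 positions that vary between the full-length germline members in capitals and position 1 of each line at base 124 of the V segment.
TRAV9-5: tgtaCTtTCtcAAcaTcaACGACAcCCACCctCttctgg
TRAV9-6: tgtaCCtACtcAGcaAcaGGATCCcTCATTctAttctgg
TRAV9-7: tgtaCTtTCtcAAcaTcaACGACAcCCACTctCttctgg
TRAV9-8: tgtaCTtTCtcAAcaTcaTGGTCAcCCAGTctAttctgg
TRAV9-9: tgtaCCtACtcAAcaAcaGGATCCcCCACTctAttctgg
TRAV9-10: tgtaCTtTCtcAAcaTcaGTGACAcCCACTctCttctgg
TRAV9-11: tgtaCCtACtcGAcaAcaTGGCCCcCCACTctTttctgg

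TRAV9-5 and TRAV9-7 were identical at 99.1% of the 324 bases before the junction and TRAV9-7 and TRAV9-10 at 97.8%, so their calls rest on few bases. TRAV9-9 and TRAV9-11, the most alike pair that includes TRAV9-11, were identical at 96.0%. The start of the junction, which V still encodes, also varied, at 3 of 14 bases, shown for 4 genes with the varying bases in capitals.
TRAV9-7: tgtgCcCtgagTga
TRAV9-8: tgtgCcAtgagTga
TRAV9-10: tgtgTcAtgagTga
TRAV9-11: tgtgCcTtgagTga

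The V gene names were checked by counting the bases at which each chain differed from every TRAV9 germline. Of 9704 TRAV9 chains in all cells, 9286 (95.7%) were nearest to the gene they were called as. TRAV9-9 (1354 of 1354) and TRAV9-11 (2256 of 2257) were called as the nearest gene almost without exception. TRAV9-5 stood apart, since 283 of its 417 chains, between 56 and 81 in each dog, were nearer to TRAV9-2, with a median of 42 differences from TRAV9-5 and 10 from TRAV9-2. The deposited TRAV9-2 germline has 337 bases against 338 in the others and an in-frame stop, and all 36 chains called TRAV9-2 carried an inserted or deleted base against it. Values for TRAV9-5 below are therefore values of the call. For TRAV9-7, 74 of 1314 chains were nearer to TRAV9-10.

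The junctions that recur in the results were of 16 residues (48 bases) and used TRAJ28, whose germline up to the phenylalanine codon reads as follows.
TRAJ28: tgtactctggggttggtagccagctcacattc

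The most widely shared junctions of TRAV9-11 with TRAJ28 in CD8A clonotypes, each found in 3 dogs, are followed by 1 CD8A junction of the same length for each of 4 other TRAV9 genes. Capitals mark bases that match neither the end of the called V gene nor TRAJ28.
TRAV9-11/TRAJ28: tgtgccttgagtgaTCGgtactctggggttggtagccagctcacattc
TRAV9-11/TRAJ28: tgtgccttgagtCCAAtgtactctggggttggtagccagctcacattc
TRAV9-11/TRAJ28: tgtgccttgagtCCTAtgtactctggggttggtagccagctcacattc
TRAV9-6/TRAJ28: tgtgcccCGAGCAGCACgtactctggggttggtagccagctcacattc
TRAV9-7/TRAJ28: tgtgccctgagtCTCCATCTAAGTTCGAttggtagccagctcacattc
TRAV9-8/TRAJ28: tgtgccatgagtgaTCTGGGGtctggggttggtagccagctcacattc
TRAV9-9/TRAJ28: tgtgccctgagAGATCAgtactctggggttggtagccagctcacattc

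The 4 transcriptome libraries held 7428 to 8873 barcodes and 26904346 to 35661623 UMIs each, and the V(D)J libraries 10535 to 12476 chains. Median UMIs per single-positive cell lay between 3747 and 4233 over dogs and classes. The V(D)J library of dog 1 lay below the others, with 10535 chains against 12447 to 12476. Dog 1 also had the fewest CD8A single-positive cells with 1 TRA and 1 TRB chain, 448 against 868 to 1421. The 87 to 120 barcodes that any 2 libraries shared never had the same receptor. The T cell markers measured (CD3E and its partners, 3 of the 4 listed) summed to 2069 to 2383 CPM (UMIs per 1e+06 UMIs of that dog and class) in both classes, B cell markers to at most 6.54 CPM and monocyte markers to at most 1.25 CPM. CD40LG, a marker of helper cells, was at 84.9 ± 6.37 CPM (SD) in CD4 and 12.6 ± 2.52 CPM in CD8A cells. A droplet with no CD4 UMI may still hold a CD4+ cell, which without a CD8A UMI falls in neither class. Clonotypes were rarely mixed: 65 of 4270 single-positive cells in clonotypes of several such cells (1.52%) were of the minority class. This covers 765 of 7430 clonotypes and does not bear on cells with neither UMI.

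The first comparison asked whether CD4 and CD8A T cells draw on the same TRAV9 genes. As a family TRAV9 made up 38.3% ± 1.38 (SD, n = 4 dogs) of CD4 and 51.8% ± 4.10 of CD8A clonotypes. In dogs 1 to 4 in turn the shares were 39.6%, 37.7%, 36.6% and 39.1% in CD4 and 54.2%, 55.1%, 51.7% and 46% in CD8A, so every CD8A value lay above every CD4 value. With TRAV9-11/TRAJ28 out of the numerator only, the family shares were 38.1% ± 1.40 and 36.9% ± 3.78, higher in CD8A in 2 dogs and lower in the other 2. The denominator still held those clonotypes. With them out of both, TRAV9 had 726, 548, 450 and 464 CD4 clonotypes against 1113, 909, 784 and 722 of other TRAV genes. In CD8A it had 94, 156, 209 and 167 against 121, 218, 257 and 223. By these counts the TRAV9 share was higher in CD8A in every dog, which was not tested. The single genes differed in direction, as the plot of usage by gene shows.

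**Figure D1:**
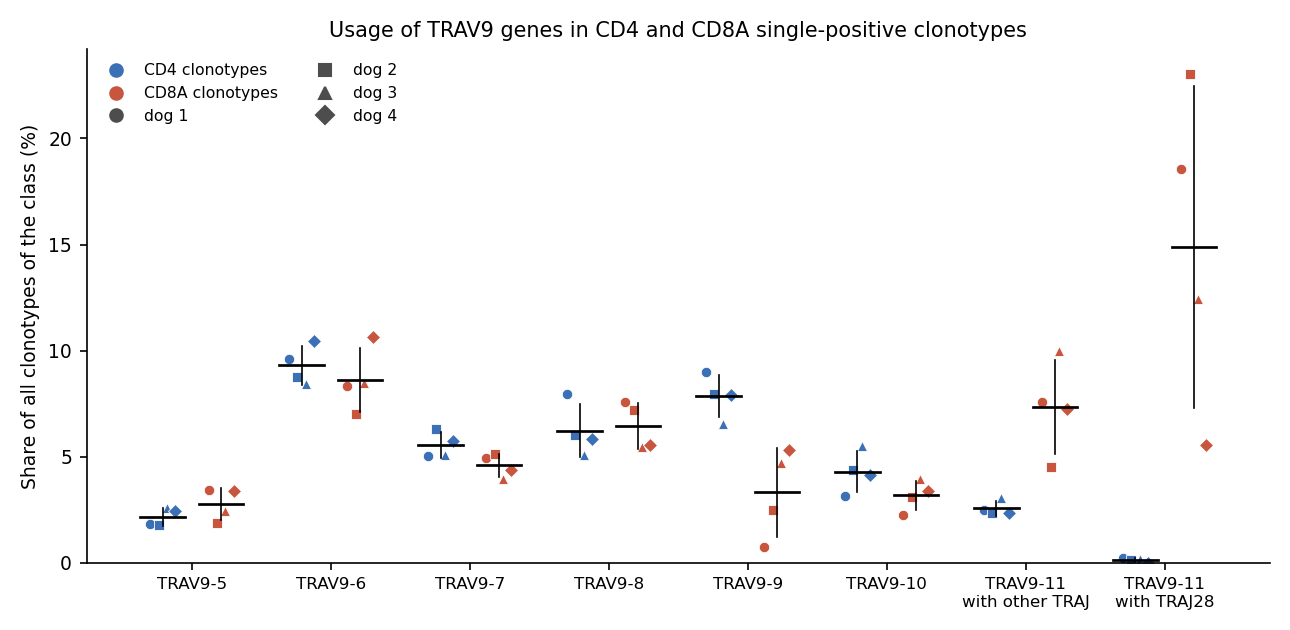
Share of all clonotypes of a class (%) carried by each TRAV9 gene, CD4 in blue and CD8A in red. Symbols are dogs 1 to 4, horizontal bars means and vertical bars SD. TRAV9-11 lies higher in CD8A, with TRAJ28 (mean 14.9%) and with other TRAJ genes (7.33%), TRAV9-9 lies lower (3.31% against 7.86%), and the other genes overlap.

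TRAV9-11 with TRAJ28 made up 0.217%, 0.137%, 0.162% and 0% of CD4 clonotypes in dogs 1 to 4, from 4, 2, 2 and 0 clonotypes. In CD8A the shares were 18.6%, 23.1%, 12.4% and 5.57%, from 49, 112, 66 and 23 clonotypes. The smallest CD8A share, in dog 4, was far above the largest CD4 share, in dog 1. CD8A exceeded CD4 by 6.68 on the log2 scale (SE 0.24, adjusted p = 3.416e-06, edgeR quasi-likelihood test over 24 TRAV features with dog as a block, Benjamini-Hochberg). The study had already reported this pair as dominant in a CD8A-dominant cluster of MAIT-like cells from these same libraries. The direction was thus known before the pair was set apart, and the p-value is not independent support for it. The 0 of 1186 CD4 clonotypes of dog 4 allows a share of up to 0.253%, for counting error only.

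Among clonotypes with a class, TRAV9-11 with any other TRAJ gene was also more frequent in CD8A. It held 2.5%, 2.33%, 3.07% and 2.36% of CD4 and 7.58%, 4.53%, 9.96% and 7.26% of CD8A clonotypes in dogs 1 to 4, without overlap. CD8A was higher by 1.49 on the log2 scale (SE 0.16, adjusted p = 0.001267, edgeR), and the call held when any dog was left out.

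TRAV9-9, which differs from TRAV9-11 at 13 of 324 bases before the junction, went the other way. Its shares were 9.01%, 7.95%, 6.55% and 7.93% in CD4 and 0.758%, 2.47%, 4.70% and 5.33% in CD8A. CD8A was lower in all 4 dogs without overlap, by a wide margin in dog 1, where 2 of 264 CD8A clonotypes used TRAV9-9, and by less in dogs 3 and 4. The log2 fold change was -1.14 (SE 0.36, adjusted p = 0.0465, edgeR), and the call was lost when dog 1, dog 2 or dog 4 was left out (log2 fold changes between -1.46 and -0.85). It held in only 8 of the 12 processing alternatives run (log2 fold changes between -1.86 and -1.10).

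Of the 8 TRAV9 features tested, 3 were called, 2 higher and 1 lower in CD8A. The 2 higher include TRAV9-11 with TRAJ28, whose direction was known beforehand. Over all 24 TRAV features tested, 41.7% were called, 16.7% higher and 25.0% lower, and 33.3% did not overlap between classes, so 3 of 8 was close to what all TRAV features gave. TRAV9-10 was lower in CD8A in 4 of 4 dogs (3.17% ± 0.699 against 4.29% ± 0.968) but missed the threshold (log2 fold change -0.44, SE 0.13, adjusted p = 0.0789, edgeR). TRAV9-7 was likewise lower in 4 of 4 dogs (4.59% ± 0.543 against 5.55% ± 0.596, adjusted p = 0.215, edgeR). These shares are of all clonotypes, which in CD8A include many of TRAV9-11/TRAJ28. As a share of TRAV9 clonotypes without TRAV9-11/TRAJ28, TRAV9-7 was at 12.7% ± 2.77 in CD8A and 14.6% ± 1.67 in CD4, lower in 3 dogs and higher in 1. TRAV9-10 was lower in 4 of 4 dogs by that measure too.

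TRAV9-6, the TRAV9 gene with the most clonotypes (678), held 9.31% ± 0.911 of CD4 and 8.61% ± 1.52 of CD8A clonotypes, a log2 fold change of -0.11 (SE 0.11). TRAV9-8 held 6.23% ± 1.23 and 6.45% ± 1.10, a log2 fold change of 0.07 (SE 0.12), and TRAV9-5 held 2.17% ± 0.411 and 2.77% ± 0.762, a log2 fold change of 0.31 (SE 0.22). None of the 3 was called. TRAV9-1 (8 clonotypes), TRAV9-2 (10) and TRAV9-3 (1) were under the minimum of 20 clonotypes for the test, and TRAV9-13 was found in 1 cell with neither CD4 nor CD8A.

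Reading each chain as its nearest germline, an alternative added after the data were seen, left TRAV9-11 as it was and moved the genes near the threshold. TRAV9-10 was then called (adjusted p = 0.0341, edgeR) and TRAV9-9 was just not (adjusted p = 0.0501, edgeR). Most TRAV9-5 clonotypes became TRAV9-2, which was then tested (log2 fold change 0.64, adjusted p = 0.0501, edgeR), and the fold change of those that remained TRAV9-5 was -0.29.

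The TRAV genes whose shares over the 8 combinations of dog and class were most like those of the TRAV9 family were TRAV24 (Pearson r = 0.951 over 8 values), TRAV34 (r = 0.64) and TRAV40 (r = 0.43). These 8 values fall into the 2 classes and share their denominators, so r describes the pattern only.

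The second comparison concerned the J genes that TRAV9 genes were joined to, with TRAV9-11/TRAJ28 left out. TRAJ28 stood out there too. It was the J gene of 4.41%, 3.28%, 2.44% and 4.74% of TRAV9 clonotypes in CD4 and of 13.8%, 14.1%, 10.5% and 6.59% in CD8A in dogs 1 to 4. Every CD8A value was above every CD4 value (7.89% of the 38 TRAJ genes tested did not overlap), and the log2 difference was 1.6 (SE 0.29, adjusted p = 0.0002029, edgeR). The call was lost without dog 3 (log2 fold changes between 1.41 and 1.93 with any dog left out) and with each cell counted once (1.29, adjusted p = 0.507, edgeR, over all alternatives 1.84e-09 to 0.507).

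TRAJ41 was the only other TRAJ gene called in this comparison, 2 of 38 or 5.26% in all. It made up 0.541% ± 0.312 of CD4 and 2.23% ± 1.42 of CD8A clonotypes, from 13 and 12 clonotypes (log2 fold change 1.97, SE 0.37, adjusted p = 0.0193, edgeR), and the ranges over dogs overlapped. The call was lost without dog 3 or dog 4 (adjusted p = 0.123 and 0.0743, edgeR), and with dog 1 or dog 2 left out too few clonotypes remained to test it. It was also lost with a limit of 2 UMIs, with each cell counted once, with TRAV9-11/TRAJ28 kept in, without the dog block and with DESeq2 (log2 fold changes between 1.45 and 2.08). TRAJ44, the gene with the next smallest p, was at 2.31% ± 0.585 in CD4 and 0.549% ± 0.400 in CD8A without overlap, and was not called (adjusted p = 0.119, edgeR).

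Whether the class difference of a TRAJ gene was larger in TRAV9 than in the other TRAV genes was tested as an interaction, and no TRAJ gene of 41 passed (0% called, 4 with an unadjusted p under 0.05, edgeR, and 2 called without the dog block). The nearest were TRAJ21 (log2 interaction 1.75, SE 0.52, adjusted p = 0.0599, edgeR) and TRAJ28 (1.32, SE 0.43, adjusted p = 0.0645, edgeR), a ratio of 2.5 between the 2 class differences. In the other TRAV genes TRAJ28 was at 2.86% ± 0.571 in CD4 and 3.35% ± 1.14 in CD8A, higher in CD8A in 2 dogs and lower in 2. TRAJ21 was at 5.99% ± 0.781 in CD4 and 7.48% ± 2.08 in CD8A clonotypes of TRAV9, and at 4.83% ± 0.607 and 1.5% ± 1.14 in those of other TRAV genes.

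Against the rest of the repertoire within a class, TRAV9 taken as a family was joined less often to the TRAJ genes of the highest numbers, which lie nearest the V genes. In CD4, 11 of 40 TRAJ genes (27.5%) differed, 3 higher (7.5%) and 8 lower (20%). All 7 tested TRAJ genes from TRAJ48 to TRAJ58 had lower values in TRAV9, 6 of them called, with a median log2 fold change of -1.07 against 0.26 for the 33 genes from TRAJ2 to TRAJ45. In CD8A the 6 tested of the same range were lower as well, 2 of them called, with a median of -1.82 against 0.36. The plot of TRAJ partners by gene number shows these values. The members were not alike, and single genes were not tested here. In CD4, TRAV9-7 (316 clonotypes) held 16 of the 43 TRAV9 clonotypes with TRAJ49 and 16 of the 47 with TRAJ52. TRAV9-8 (367 clonotypes) held 1 with TRAJ49. In CD8A, TRAV9-11 with other TRAJ genes (125 clonotypes) held 10 of the 15 with TRAJ52 and all 4 with TRAJ58.

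TRAJ58 was nearly absent from TRAV9 in CD4, with 3 clonotypes, all of TRAV9-7, and 0.144% ± 0.103 against 1.19% ± 0.286 in the other TRAV genes (log2 fold change -2.96, SE 0.60, adjusted p = 6.537e-05, edgeR). TRAJ56 (0.291% ± 0.139 against 1.49% ± 0.275) and TRAJ54 (1.05% ± 0.338 against 2.79% ± 0.351) were lower by 2.34 and 1.40 on the log2 scale. TRAJ43, TRAJ49, TRAJ52, TRAJ34 and TRAJ48 were lower by 0.67 to 1.10. The 3 that were higher were TRAJ9 (3.32% ± 0.218 against 1.72% ± 0.470, log2 fold change 0.94), TRAJ15 (0.73) and TRAJ23 (0.72). All 11 moved the same way in 4 of 4 dogs. TRAJ15 was lost without dog 2 or 4, TRAJ23 without dog 2, TRAJ34 without dog 1, 3 or 4 and TRAJ48 without dog 1, 2 or 4. DESeq2 called 3 of the 40.

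In CD8A, 4 of 31 TRAJ genes (12.9%) differed between TRAV9 and the other TRAV genes. TRAJ21 (7.48% ± 2.08 against 1.5% ± 1.14, log2 fold change 2.07, SE 0.50) and TRAJ28 (11.3% ± 3.52 against 3.35% ± 1.14, 1.71, SE 0.31) were higher (6.45%). TRAJ54 (1.02% ± 1.01 against 5.05% ± 1.07, -2.17, SE 0.63) and TRAJ52 (2.13% ± 1.53 against 7.45% ± 2.22, -1.68, SE 0.43) were lower (6.45%). None of the 4 overlapped between families, but overlap was not counted over all 31 genes tested. TRAJ44, which was not called, did not overlap either (0.549% ± 0.400 in TRAV9 against 2.25% ± 0.706), so lack of overlap does not set the 4 apart. TRAJ54 was lost without dog 2. Without dog 4, which left 22 genes to test, none of them was called, and DESeq2 called none of the 31 either, while 7 had an unadjusted p under 0.05 in edgeR.

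**Figure D2:**
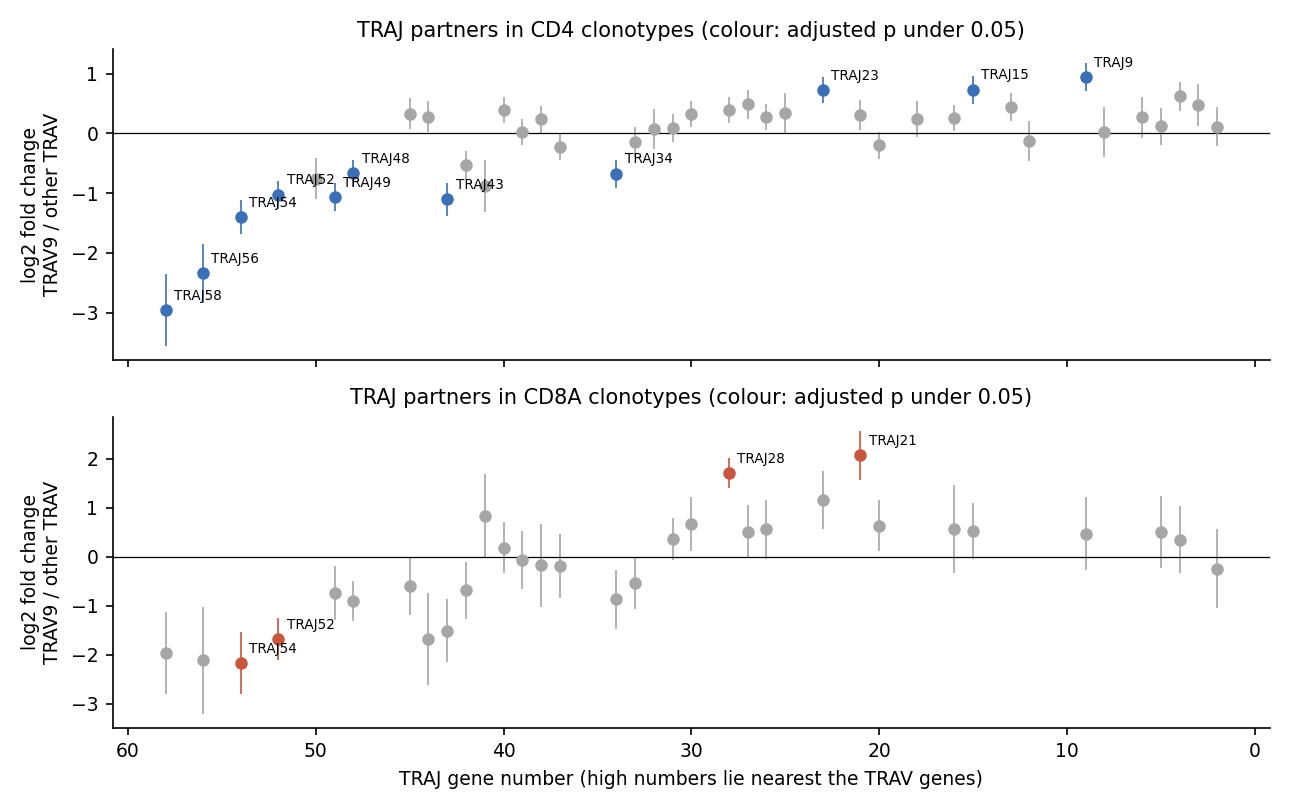
Log2 fold change of each TRAJ gene's share in TRAV9 over other TRAV clonotypes (points, bars SE), in CD4 above and CD8A below, by TRAJ number from high to low; coloured points have an adjusted p under 0.05 (edgeR) and TRAV9-11/TRAJ28 is left out. Values at TRAJ48 to TRAJ58 are all below 0 in both classes (medians -1.07 and -1.82), and TRAJ28 is called in CD8A.

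TRAJ28 was joined to different TRAV9 genes to a different extent. In TRAV9-11 it was the partner of 8.0%, 5.56%, 5.0% and 0% of CD4 and 71.0%, 83.6%, 55.5% and 43.4% of CD8A clonotypes. In the other TRAV9 genes together the shares were 4.71%, 3.50%, 2.67% and 5.05% in CD4 and 17.6%, 16.4%, 14.1% and 8.03% in CD8A. The lowest CD8A value, in dog 4, was above the highest CD4 value, also in dog 4.

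The higher share was not that of a single gene. TRAJ28 was the partner of 13 of 77 TRAV9-7 clonotypes in CD8A (16.9%, exact 95% interval 9.31% to 27.1%) against 7 of 316 in CD4 (2.22%, 0.895% to 4.51%). It was the partner of 10 of 61 against 25 of 457 in TRAV9-9, of 19 of 145 against 22 of 533 in TRAV9-6, of 13 of 107 against 18 of 367 in TRAV9-8, of 5 of 45 against 3 of 121 in TRAV9-5 and of 6 of 56 against 7 of 239 in TRAV9-10. In each of these 6 genes the share, pooled over dogs, was higher in CD8A. The exact intervals of CD4 and CD8A overlapped for TRAV9-5, TRAV9-8 and TRAV9-10 and not for TRAV9-6, TRAV9-7 and TRAV9-9. Because they pool clonotypes over dogs, and the dog is the replicate, this split does not test single genes. Shares by dog were not compared for single genes. The CD8A clonotypes with TRAJ28 came from every dog for TRAV9-6 and TRAV9-7 but not for TRAV9-9. The intervals here and below are Clopper-Pearson intervals and cover counting error only.

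These chains were mostly of 1 length. Of the 68 CD8A clonotypes with TRAJ28 and a TRAV9 gene other than TRAV9-11, 43 had a junction of 16 residues (63.2%, 50.7% to 74.6%), with 53.9%, 68.2%, 63.6% and 63.6% in dogs 1 to 4. In CD4 it was 14 of 83 (16.9%, 9.54% to 26.7%), with 5.56% to 27.3% by dog. Among TRAV9-11/TRAJ28 in CD8A it was 246 of 250 (98.4%), among other TRAV genes with TRAJ28 in CD8A 4 of 27 (14.8%), and among TRAV9 with other TRAJ genes in CD8A 47 of 558 (8.42%). Chains with both TRAV9 and TRAJ28 thus had the highest shares of 16 residues in CD8A, a description made after the lengths were seen and not tested.

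**Figure D3:**
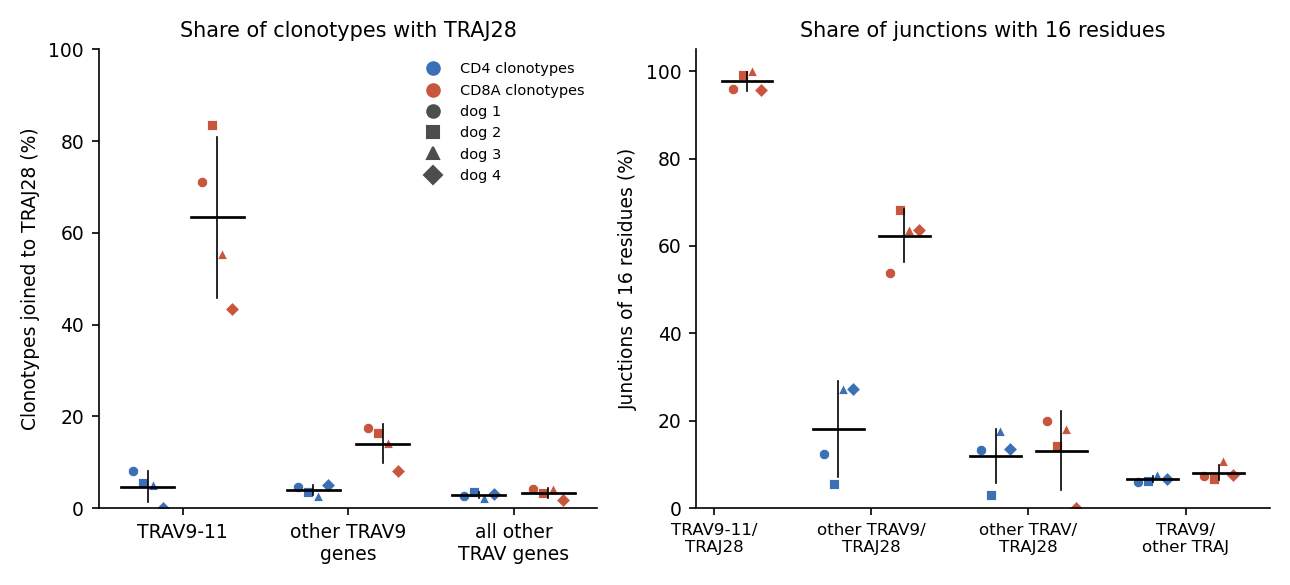
Left, share of clonotypes joined to TRAJ28 (%) for TRAV9-11, other TRAV9 genes and all other TRAV genes; right, share of junctions with 16 residues (%) in 4 sets of chains, with the 8 CD4 clonotypes of TRAV9-11/TRAJ28 not drawn. Symbols are dogs, blue CD4 and red CD8A, bars mean and SD. Other TRAV9 genes with TRAJ28 lie at 62.3% in CD8A and 18.2% in CD4 (means over dogs).

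By gene, 16 residues were found in 5 of 5 TRAV9-5, 11 of 13 TRAV9-7, 10 of 19 TRAV9-6, 7 of 13 TRAV9-8, 5 of 10 TRAV9-9, 4 of 6 TRAV9-10 and 1 of 1 TRAV9-1 chains with TRAJ28 in CD8A. Of the V segments of the 43, 37 were nearest the gene they were called as, 5 were nearer to another, and none differed from TRAV9-11 at fewer than 14 bases (median 38). All 43 junctions were different from each other. At least 31 bases of TRAJ28 were kept in 35 of 43, as in 205 of 246 TRAV9-11/TRAJ28 junctions of the same length. Among TRAV9/TRAJ28 junctions of other lengths in CD8A, 5 of 25 did so. Of the sequences printed above, those of TRAV9-6 and TRAV9-9 kept 31 bases, that of TRAV9-7 kept 20 and that of TRAV9-8 kept 27. Of the 43, 2 began with the 9 bases of TRAV9-11.

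The beta chain was not used in choosing these clonotypes. TRBV28 was the partner of 14 of the 68 CD8A clonotypes with TRAJ28 and another TRAV9 gene (20.6%, 11.7% to 32.1%), with 18.2% to 23.1% in every dog, and of none of the 83 in CD4, where a count of 0 allows up to 4.35%. It was the partner of 87 of 250 TRAV9-11/TRAJ28 clonotypes in CD8A (34.8%) and of 17 of 558 TRAV9 clonotypes with other TRAJ genes in CD8A (3.05%). The study reports TRBV25 beside TRBV28 in MAIT-like cells, but no values for TRBV25 in these sets are given here. Over all CD8A clonotypes without TRAV9-11/TRAJ28, TRBV25 was at 6.76% ± 1.11 in TRAV9 and 7.24% ± 1.90 in other TRAV genes.

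Transcripts of the same cells were compared with 1 cell per clonotype, again as a description chosen after the data were seen. FCER1G, the signalling gamma chain of Fc receptors that innate-like T cells express, had a UMI in 23 of the 43 cells with TRAJ28, another TRAV9 gene and 16 residues (53.5%, 37.7% to 68.8%), against 0 of the 25 of other lengths, which allows up to 13.7%. It had a UMI in 162 of 250 TRAV9-11/TRAJ28 cells (64.8%), in 39 of 433 CD8A cells with another TRAV9 and another TRAJ gene (9.01%), and in 9 of 2105 CD4 cells with TRAV9 and another TRAJ gene (0.428%), which serves as background. By dog the share in the 43 was 28.6%, 86.7%, 57.1% and 0%, so dog 4 (7 cells) did not show it. No value is given here for CD8A cells with other TRAV genes. In the expression comparison below FCER1G was called lower in TRAV9 than in those cells, so 9.01% is not a background for CD8A cells at large.

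KLRB1, the C-type lectin CD161, had a UMI in 62.8% of the 43, 68.0% of TRAV9-11/TRAJ28, 16% of the 25 of other lengths and 1.14% of the CD4 cells. NCR3, the activating receptor NKp30, had a UMI in 60.5%, 74.8%, 20% and 0.475%, and GZMB, granzyme B, in 72.1%, 80.8%, 40% and 2.04%. CCR7, the homing receptor of naive cells, ran the other way, at 9.30%, 2.80%, 28.0% and 43.7%. The CD4 cells differ from the other sets in class as well, so the 25 CD8A cells of other lengths are the closer comparison. Values by dog are not given for KLRB1, NCR3, GZMB and CCR7. Median UMIs per cell were 3682, 3622, 4015 and 3992 in these 4 sets, and with every cell thinned to 2000 UMIs FCER1G had a UMI in 20 of 40 (50%), 57.0%, 0% and 0.203%. The 14 CD4 cells with TRAJ28, another TRAV9 gene and 16 residues had no UMI of FCER1G, KLRB1 or NCR3.

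Identical TRA junctions in several dogs were most frequent in TRAV9-11/TRAJ28 of the CD8A class. Of its 201 different CD8A chains, 26 occurred in at least 2 dogs (12.9%, 8.63% to 18.4%), 7 of them in 3 dogs and none in 4. Its 8 CD4 chains held none, which allows up to 36.9%. Among the remaining TRAV9 chains it was 4 of 618 in CD8A (0.647%) and 13 of 2152 in CD4 (0.604%), and among other TRAV genes 8 of 801 and 30 of 3463. These sets span many V-J pairs and lengths, where identical junctions are less likely, and no other single pair was compared. Shared TRAV9-11/TRAJ28 chains had a median of 4 bases that neither gene encodes and unshared ones 6.

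The length of the TRAV9 junction was the third comparison, without TRAV9-11/TRAJ28. Its mean over clonotypes was 13.6 ± 0.0719 residues in CD4 and 13.8 ± 0.0811 in CD8A, longer in CD8A in 4 of 4 dogs by 0.224 ± 0.13. Other TRAV genes were at 13.45 ± 0.0362 and 13.58 ± 0.210, longer in CD8A in 3 dogs. The class difference of TRAV9 exceeded theirs by 0.0889 ± 0.249 residues, and in 2 dogs only, so longer CD8A junctions were not particular to TRAV9. The mean hides a change of shape, as the histogram of lengths shows. Junctions of 16 residues made up 6.20%, 6.20%, 8.0% and 7.76% of CD4 and 13.8%, 15.4%, 16.3% and 11.4% of CD8A clonotypes in dogs 1 to 4 (log2 fold change 1.0, SE 0.16, adjusted p = 1.776e-05, edgeR over 8 lengths). Every CD8A value was above every CD4 value. In other TRAV genes junctions of 16 residues were at 6.91% ± 1.45 in CD4 and 9.04% ± 1.14 in CD8A, higher in CD8A in every dog, which was not tested.

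Of the 8 lengths tested, 4 were called (50%) and the same number did not overlap between classes. Junctions of 17 residues were at 2.22% ± 0.656 in CD4 and 4.64% ± 0.951 in CD8A (1.03, adjusted p = 0.0200, edgeR), lost without dog 1, 2 or 4. Junctions of 13 residues were at 22.4% ± 0.573 and 16.3% ± 2.76 (-0.44, adjusted p = 0.0112, edgeR), lost without dog 4, and those of 14 residues at 27.4% ± 1.28 and 20.6% ± 2.15 (-0.40, adjusted p = 0.0112, edgeR).

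With all TRAJ28 clonotypes left out, an alternative added after the data were seen, none of the lengths was called, but the differences did not all shrink. That of 16 residues went from 1.0 to 0.31 on the log2 scale (6.61% ± 0.706 in CD4 and 8.13% ± 1.76 in CD8A, adjusted p = 0.299, edgeR, over all alternatives for this length 8.645e-11 to 0.305). That of 17 residues was 0.96, that of 13 residues -0.41 and that of 14 residues -0.28. With each cell counted once, 16 residues (0.49, adjusted p = 0.305, edgeR) and 14 residues (-0.16) were not called either.

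**Figure D4:**
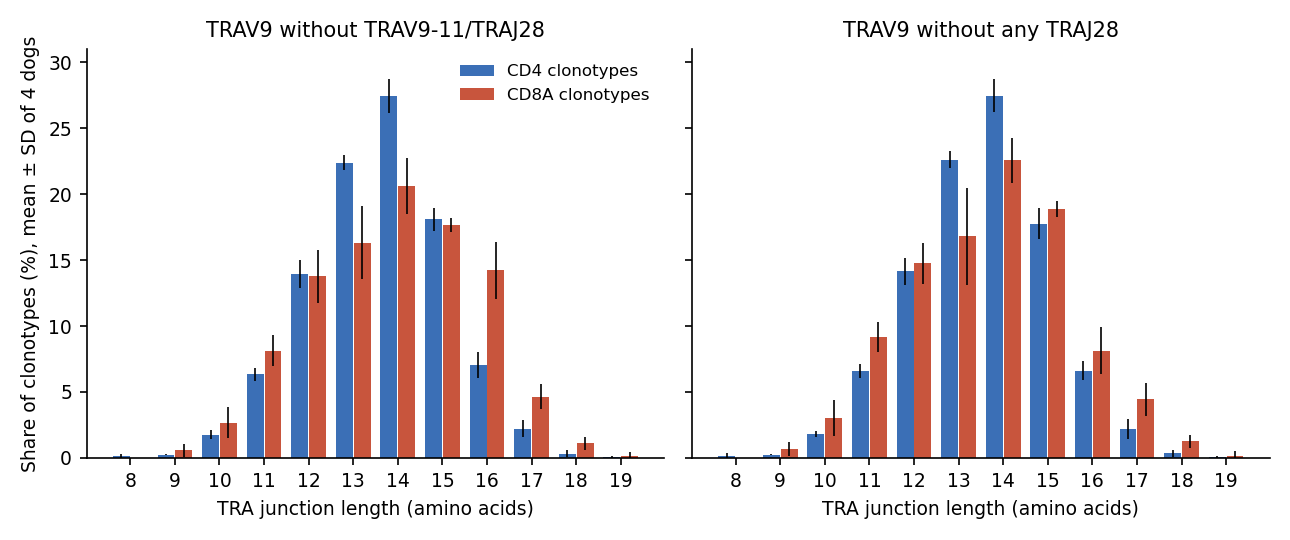
Distribution of TRA junction lengths in TRAV9 clonotypes (% of clonotypes, bars mean and error bars SD of 4 dogs), CD4 in blue and CD8A in red. Left, all but TRAV9-11/TRAJ28, where 16 residues are at 7.04% in CD4 and 14.2% in CD8A; right, without any TRAJ28, where they are at 6.61% and 8.13%.

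By gene, TRAV9-7 was the only TRAV feature of 11 (9.09%) whose mean length differed between classes. Its junctions had 13.59, 13.62, 13.65 and 14.01 residues in CD4 and 14.23, 15.08, 14.43 and 14.50 in CD8A, from 63 to 93 and 13 to 25 clonotypes per dog (difference 0.90, SE 0.24, adjusted p = 0.0121, limma). The call was lost without dog 2 (difference 0.64), without TRAJ28 (0.73, adjusted p = 0.0935, limma), with the nearest germline (0.79, adjusted p = 0.0545, limma), with a limit of 2 UMIs (0.88) and with each cell counted once (0.81).

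TRAV9-10 had the opposite sign, with 14.1 ± 0.182 residues in CD4 and 13.2 ± 0.269 in CD8A, shorter in 4 of 4 dogs but not called (adjusted p = 0.0652, limma). TRAV9-5 (13.7 and 14.3) and TRAV9-8 (13.3 and 13.7) were longer in CD8A in 4 of 4 dogs, and neither was called. The lengths of TRAV9-6 (13.5 and 13.7) and TRAV9-11 with other TRAJ (13.9 and 13.6) moved in different directions in different dogs.

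Few TRBV genes were called different between the beta chain partners of TRAV9 and those of other TRAV genes. In CD4, TRBV28 was lower, the only 1 of 18 TRBV genes called (5.56%). It was paired with 3.73% ± 1.02 of TRAV9 and 6.61% ± 0.966 of other clonotypes (log2 fold change -0.80, SE 0.24, adjusted p = 0.0255, edgeR). That call was lost without dog 2, 3 or 4. The families did not overlap for TRBV28, but overlap was not counted over all 18 genes. TRBV5-2 and TRBV1 had the next smallest p and were not called (0.24 and 0.26, adjusted p = 0.864 for both, edgeR). In CD8A no TRBV gene of 15 was called (0%, with 2 at an unadjusted p under 0.05, edgeR and DESeq2). TRBV26 had the smallest p, with 2.48% ± 0.526 in TRAV9 and 4.68% ± 0.716 in the others (-0.97, SE 0.33, adjusted p = 0.200, edgeR), lower in 4 of 4 dogs. TRBV28 had the opposite sign to CD4, with 4.90% ± 0.632 in TRAV9 and 2.65% ± 0.374 in the others (0.87, SE 0.30, adjusted p = 0.200, edgeR). TRBV3-1 came next (0.49, SE 0.34, adjusted p = 0.782, edgeR).

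Clone size differed between classes more than between families. Without TRAV9-11/TRAJ28, 9.14% ± 6.67 of TRAV9 clonotypes in CD4 and 25.5% ± 9.26 in CD8A had at least 2 cells, against 10.7% ± 6.49 and 20.9% ± 8.02 for other TRAV genes. The difference of TRAV9 from the others was -1.54 ± 1.81 percentage points in CD4, negative in 4 of 4 dogs, and 4.54 ± 6.09 in CD8A, positive in 3 of 4. TRAV9-11/TRAJ28 in CD8A was at 24.5% ± 6.32. The largest CD8A clones held 125 cells in TRAV9-6, 118 in TRAV9-7 and 102 in TRAV9-11/TRAJ28.

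Gene expression was compared between TRAV9 cells, again without TRAV9-11/TRAJ28, and other cells of the same class. Summed per dog, 30 of 8979 genes (0.334%) were called in CD4 and 28 of 8255 (0.339%) in CD8A, of which 22 and 23 were receptor genes or carried only an identifier. Of the called genes 6 were higher (0.0668%) and 24 lower (0.267%) in CD4, and 8 higher (0.0969%) and 20 lower (0.242%) in CD8A. Of the genes with a name outside the receptor loci, NUSAP1, a spindle protein, was lower in TRAV9 cells of the CD4 class, at 2.49 ± 0.491 CPM against 7.86 ± 2.01 (log2 fold change -1.61, SE 0.27, adjusted p = 0.001064, edgeR).

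Also lower in 4 of 4 dogs were DLGAP5 (-2.07) and ASPM (-1.54), both of the mitotic spindle, and TOP2A, a topoisomerase of replicating cells (-1.28). All 4 were below 20 CPM in every dog, from few UMIs, and all were called with 1 cell per clonotype too (-2.27 to -1.38). Each kept its call in 5 of the 7 alternatives run. The call of NUSAP1 held with any dog left out, that of DLGAP5 was lost without dog 2 or 4, and those of ASPM and TOP2A without dog 1 or 4. CCL4, a chemokine of activated cells, was also lower (-0.85, adjusted p = 0.0004358, edgeR) and JUNB, a transcription factor of the AP-1 family, higher (0.19, adjusted p = 0.0308, edgeR). Both lost the call with 1 cell per clonotype (CCL4 -0.21, adjusted p = 0.969, edgeR).

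In CD8A the genes outside the receptor loci that moved the same way in 4 of 4 dogs were PON2, a membrane lactonase (3.99 ± 2.48 against 11.4 ± 2.58 CPM, log2 fold change -1.51, adjusted p = 0.0485, edgeR), and CD52, a surface glycoprotein of lymphocytes (38.4 ± 7.5 against 64.1 ± 36.9 CPM, -0.77, adjusted p = 0.0495, edgeR). Neither call held without TRAJ28 cells, without dog 1 or 3, without TMM factors or the dog block, or with DESeq2. PON2 was lost without dog 4 as well, and its log2 fold change stayed between -1.84 and -1.36 with any dog left out and was -1.44 without TRAJ28 cells. That of CD52 was -0.73 without TRAJ28 cells, -0.32 without dog 3 and -0.01 with 1 cell per clonotype. Of the innate-like and cytotoxic gene list, 1 of 16 measured genes was called in CD4 (CCL4) and 1 of 19 in CD8A (FCER1G, lower in TRAV9 but not in every dog), with medians of 0.02 and 0.11 against 0.00 over all genes tested in each class. None of the 10 and 9 measured genes of the naive and quiescent list was called.

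Clonotypes in which no cell had a CD4 or CD8A UMI were left out of all comparisons above, and were examined after the data were seen. They can be true double-negative cells or cells whose transcript was missed, which cannot be told apart here. TRAV9-11 with other TRAJ genes had the highest mean share of them: 61.4%, 72.6%, 59.3% and 59.2% of its clonotypes in dogs 1 to 4 (mean 63.1% ± 6.40, 483 of 762). The other TRAV9 genes were at 33.9%, 32.2%, 31.2% and 29.4%, other TRAV genes at 33.1% ± 2.40 and TRAV9-11/TRAJ28 at 11% ± 2.22. Among single genes TRAV34 came next with 48.8% ± 8.35. TRAV9-11 with other TRAJ lay apart from the other 3 sets in every dog, as the plot of these shares shows, and counted by cells TRAV9-11 with other TRAJ was at 48.9%, against 26.3% to 35.9% for TRAV9-5 to TRAV9-10.

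**Figure D5:**
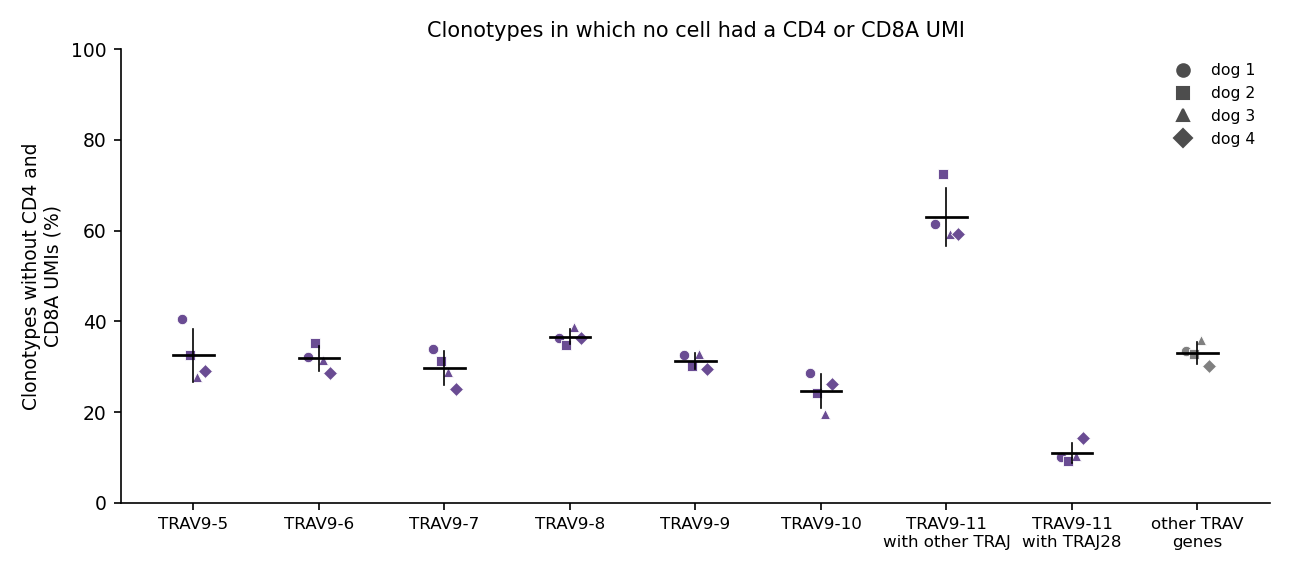
Share of clonotypes in which no cell had a CD4 or CD8A UMI (%), by TRAV9 gene and for all other TRAV genes in grey. Symbols are dogs, horizontal bars means and vertical bars SD. TRAV9-11 with other TRAJ genes lies between 59.2% and 72.6%, above every other point, and TRAV9-11/TRAJ28 lies lowest (mean 11%).

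Tested against clonotypes with a single-positive cell, TRAV9-11 with other TRAJ was higher among those with neither (log2 fold change 1.74, SE 0.13, adjusted p = 6.895e-06, edgeR, 7 of 25 features called or 28.0%, 12% higher and 16% lower). TRAV9-11/TRAJ28 (-2.20, SE 0.18) and TRAV9-10 (-0.69, SE 0.16, adjusted p = 0.0081, edgeR) were lower, and the other TRAV9 genes tested were not called. Median UMIs per cell in these TRAV9-11 cells were 3638 to 4083 by dog and in the other TRAV9 cells 3482 to 3868. Their 483 clonotypes used 40 TRAJ genes, none above 5.18%, and their junctions had 13.6 ± 0.177 residues against 13.6 ± 0.0791 in the other TRAV9 genes.

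Within the clonotypes with neither UMI, 61 of 6587 genes (0.926%) differed between TRAV9-11 with other TRAJ and the other TRAV9 genes with 1 cell per clonotype, 37 higher (0.562%) and 24 lower (0.364%). These calls rest on a spread pooled over all genes, which takes no account of genes that vary more between dogs. With each gene's own spread (limma-voom, added after the data were seen) none was called, with 427 at an unadjusted p under 0.05, and without the dog block 4 were, so the values are given below without p. CCDC3, a secreted coiled-coil protein, was at 144, 238, 136 and 95.1 CPM in TRAV9-11 and 69.8, 122, 60.6 and 68.3 CPM in the others (log2 fold change 0.94). GPR25, an orphan G protein-coupled receptor of T cells, was at 173 ± 47.2 against 103 ± 43.5 CPM (0.73). RBPJ, the DNA-binding partner of Notch, was at 89.2 ± 3.04 against 56.2 ± 7.13 CPM (0.65), and PDLIM1, ADAM19, IFFO2, NPC2, BRD9 and GSDMA were higher by 0.59 to 0.72.

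MKI67, a marker of cycling cells, had lower values in TRAV9-11, at 16.5, 11, 9.19 and 17.8 CPM against 90.2, 32.8, 15.2 and 69.3 (log2 fold change -1.86), and STMN1, a microtubule regulator, at 275 ± 32.0 against 368 ± 89.9 CPM (-0.45). GZMK, granzyme K, was at 14.1, 81.8, 86.4 and 53.5 CPM against 67.0, 92.5, 208 and 190.1 (-1.13), close to the other TRAV9 genes in dog 2 and far below them in dog 1. KLRK1, the receptor NKG2D (-1.79), and CCR9, the homing receptor of gut T cells (-1.60), were lower from levels under 60 CPM. Of the 6 measured genes of the innate-like and cytotoxic list, 3 were called with the pooled spread, all lower (GZMK, CCL5 and KLRK1). The median of the 6 was -0.97, against 0.00 over all genes. Of the 9 measured naive and quiescent genes only CCR7 was called with the pooled spread, lower, and the median of the 9 was -0.02. With any dog left out, the same model was refitted. This does not replace the fit with each gene's own spread, which called none of these genes. Of the genes named here, CCDC3, GPR25, PDLIM1, MKI67, KLRK1 and GZMK kept their call in these refits, and CCR9 in both that could test it. BRD9, IFFO2 and NPC2 lost it without dog 1, 2 or 3, ADAM19 without dog 1 or 2, RBPJ without dog 1 or 3, GSDMA without dog 3 and STMN1 without dog 2. None of these genes was called without the dog block. Over all genes 35 to 71 were called with any dog left out.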

How the data were processed

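The authors sorted TCRαβ+ cells, prepared 10x 5′ transcriptome and V(D)J libraries and, per the labels, used Cell Ranger 5.0.1. They deposited raw UMI counts per gene and barcode (unit: counts) and V(D)J rows with germline and read sequences. Reads were aligned to CanFam 3.1, per the study's methods, and no source used here names the V(D)J reference. Gene names of all 4 matrices came from the list of dog 2: in that order, row totals in dog 1 had a correlation of 0.989 to 0.991 (log scale) with each other dog. 21 cells with 1 TRA and 1 TRB row had no barcode in the matrix. No filter on UMIs was applied in the main analysis, and doublets were not called beyond the sort and the 1 TRA, 1 TRB rule.

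Clonotypes per feature, dog and class were tested with edgeR 4.0.16 (R 4.3.3; quasi-likelihood, dog as block, library size all clonotypes of the column, features with at least 20 clonotypes, Benjamini-Hochberg over all features tested, threshold 0.05), expression sums with TMM factors, mean lengths with limma 3.58.1 (at least 5 clonotypes per column). For the length classes and for expression in clonotypes with neither UMI, edgeR estimated no spread particular to a feature (infinite prior degrees of freedom), so those p-values rest on a spread pooled over features. DESeq2 1.42.0 was an alternative. Both classes of a dog come from 1 library, which is why dog is the block. Functions were tested on simulated data. Distances to germline ran through the first 9 junction bases. Every TRAV9 gene is named. Of TRAJ, TRBV, lengths and genes, those called and moving the same way in all 4 dogs are named, up to 10 per direction, or the 3 with the smallest p where fewer than 3 passed. The members, gene lists and comparisons were chosen with earlier results of these data known.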

Additional observations from a re-analysis of the deposited data

Results flagged for a closer look

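The mean junction length of TRAV9-7 in CD4 was 14.01 residues in its highest dog, dog 4, and 13.59 to 13.65 in the other 3. The share of clonotypes with neither a CD4 nor a CD8A UMI among those of TRAV9-11 with other TRAJ genes was 72.6% in its highest dog, dog 2, and 59.2% to 61.4% in the others. Both were singled out because the gap to the nearest dog exceeded Dixon's 95% critical value for 4 values. In all 52 sets of 4 dogs were examined in this way, and chance singles out about 1 in 20.

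The mean of that share over the dogs, 63.1%, belongs to cells that the comparison of CD4 with CD8A does not use. It lay above the 29.4% to 35.9% of single dogs in the other TRAV9 and other TRAV genes, each pooled over genes. Single genes reached higher in single dogs, TRAV34 59.15% and TRAV28 50.6%, both in dog 3.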

How the results depend on the processing

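With 4 dogs and 264 to 532 CD8A clonotypes per dog, a TRAV9 gene at a few percent rests on 2 to 53 CD8A clonotypes per dog, which limits what can be called. Counts of features called are given for each alternative that moved them by over 1.5 times. For TRAV usage (10 called) DESeq2 called 6, and 6 to 8 were called with any dog left out. For TRAJ partners of TRAV9 in CD4 against CD8A (2 called) a limit of 2 UMIs gave 1, DESeq2 1, TRAV9-11/TRAJ28 kept in 7, and any dog left out 0 to 1. For length classes (4 called) a limit of 2 UMIs gave 2, each cell counted once 2, no TRAJ28 0, and any dog left out 2 to 4. For TRAV9 against other TRAV, TRAJ partners in CD4 (11) gave 3 and in CD8A (4) 0 with DESeq2, and 8 to 10 and 0 to 6 with any dog left out, and TRBV partners in CD4 (1) gave 0 with DESeq2 and 0 to 1 with any dog left out. For mean lengths (1 called) a limit of 2 UMIs, each cell counted once, the nearest germline and no TRAJ28 each gave 0, TRAV9-11/TRAJ28 kept in gave 2, and any dog left out 0 to 6. For expression in CD4 (30) and CD8A (28) no filter on low counts gave 48 and 72 and DESeq2 17 and 18, and in clonotypes with neither UMI (61) any dog left out gave 35 to 71 and limma-voom with each gene's own spread 0 (427 at an unadjusted p under 0.05). Each cell counted once moved the family share difference to 20.3 points. It moved that without TRAV9-11/TRAJ28, which stayed in the denominator, to 2.80 points and the family length difference to 0.385 residues. With TRAV9-11/TRAJ28 kept in, the length difference was 0.818. Left without a dog, these 3 differences ran from 12.2 to 15.7 points, from -2.65 to 0.135 points and from 0.168 to 0.262 residues. The causes were not tested.

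Without the replicate block, which ignores that CD4 and CD8A values are paired within a dog, TRAJ partners gave 1 call, the TRAJ interaction 2, TRBV partners in CD4 0, mean lengths 3, expression in CD4 17 and in CD8A 16, TRAV usage in clonotypes with neither UMI 4 and expression there 4.

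Signs turned in 9 cases, none of them called. In TRAV usage, TRAV9-5 was at -0.29 with the nearest germline, TRAV9-6 at 0.18, TRAV9-7 at 0.14 and TRAV9-8 at -0.27 with each cell counted once, and TRAV9-8 also at -0.0097 without dog 2 (up to 0.11 without dog 1) and at -0.00095 without TRAJ28 clonotypes. The length difference of TRAV9-6 was -0.0048 without TRAJ28 and -0.015 without dog 3 (up to 0.32 without dog 1). TRAV9-5 was at 0.065 among clonotypes with neither UMI without dog 3 and at -0.28 without dog 1. TRAV9-11 with TRAJ28 and with other TRAJ genes were called in CD8A under all alternatives run, none of which gave a class to clonotypes with neither UMI. No chain was called with several V genes, so that alternative was not run.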
